A study of Mus musculus with 56 samples.

Results

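The transcripts described here are the eukaryotic translation initiation factors of mouse heart and the genes that share their nomenclature, taken as every listed gene whose symbol begins with Eif followed by a digit from 1 to 6. After 6 pseudogenes were dropped, 53 of the 22864 listed genes were left. The hearts were those of female mice of the inbred strain C57BL/6J, adult and 9 weeks of age. All mice lived in a cycle of 12 h light and 12 h dark and had food at all times from 7 weeks of age. For the last 7 days one group then ate only by day, which is called daytime-restricted feeding (DRF), and the other only at night, which is called nighttime-restricted feeding (NRF) and serves as the control because mice are night eaters. PolyA RNA was sequenced from 4 replicates per regimen every 4 h at 7 zeitgeber times (ZT, counted in hours since the light came on), of which ZT0 was the first and ZT24 the last, giving 56 libraries in 14 groups. The comparison asks whether a transcript keeps to the clock time of the light cycle or moves with the meal when feeding is inverted. The labels do not say that each replicate was a separate mouse, so every p-value measures the spread between these samples.

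Initiation is the step at which a ribosome is loaded onto an mRNA and finds its start codon, and it is where cells set most of their rate of protein synthesis. eIF2 brings the initiator tRNA to the small ribosomal subunit together with eIF1, eIF1A, eIF3 and eIF5, while eIF4E binds the cap of the mRNA, eIF4G bridges the cap to the ribosome, and the helicase eIF4A, helped by eIF4B and eIF4H, unwinds the leader. Nutrients act on the pathway at defined points: mTORC1 signalling releases eIF4E from the 4E-binding proteins, and kinases of eIF2 slow initiation under amino acid shortage or stress. Much of this control acts on proteins by phosphorylation, which RNA levels do not show.

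The libraries held 29.3 to 53.0 M recovered reads each, with a median of 37.4 M. The share of them in initiation factor transcripts was 0.609 ± 0.00955% (SD, n = 28) in night-fed hearts and 0.604 ± 0.0160% (SD, n = 28) in day-fed ones. Heart identity was clear, with the summed level of 5 cardiomyocyte markers between 14278 and 25455 TPM in every library. The atrial marker sum ran from 95.3 to 5503 TPM and the erythroid sum from 1690 to 67600 TPM, and both varied within groups. The library with the highest erythroid sum was DRF ZT4 replicate 2. Without it 14 members had the fed minus fasted call described below in place of 15, 12 the light minus dark call in place of 13, and 18 the mean call in place of 16. In bulk tissue, fewer cells of a type cannot be told apart from less RNA per cell.

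Levels are in TPM, reads divided by gene length and scaled to 1 sum in every library, which allows comparison between genes. Of the 53 members, 52 had a mean of at least 1 TPM and were tested. Eif4ebp3, a 4E-binding protein, averaged 0.445 TPM and 5.66 reads per library and was not tested. Eif2s3y and Eif4e1b were not analysed here. Mean levels of tested members spanned from 1.94 TPM for Eif3j2 to 508 TPM for Eif1, the factor that guards start codon choice, and 45 of them averaged above 10 TPM. Averaged over the regimens, no tested member differed by more than 0.22 on the log2(TPM + 1) scale between fed and fasted hours. Within a regimen this difference reached 0.33, for Eif4a1 under DRF. The ratio of highest to lowest group mean of a tested member reached 2.10, for Eif5a2 under NRF.

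To show how the sequence upstream of the members described below looks, the bases before the annotated RefSeq start (GRCm38.p6) of 3 genes of the eIF4A helicase group are given 5′ to 3′ on the coding strand. For Eif4a2 the stretch stops short of that start, where a GENCODE exon begins. They were chosen because Eif4a1 and Eif4a2 encode near-identical helicases and had fed minus fasted calls of opposite sign (that of Eif4a2 ended without ZT8 or ZT12), and because Eif4b, their cofactor, carried the largest fed minus fasted difference averaged over the regimens. Capitals mark CACGTG, the E-box to which the clock activators BMAL1 and CLOCK and the growth factor MYC can bind.
Eif4a1, chr11:69672424-69672673, minus strand: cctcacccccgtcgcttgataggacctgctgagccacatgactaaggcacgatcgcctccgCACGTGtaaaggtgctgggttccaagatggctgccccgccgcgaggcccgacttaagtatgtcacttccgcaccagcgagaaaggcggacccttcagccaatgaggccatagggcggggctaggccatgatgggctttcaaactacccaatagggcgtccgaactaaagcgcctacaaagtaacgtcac
Eif4a2, chr16:23107218-23107443, plus strand: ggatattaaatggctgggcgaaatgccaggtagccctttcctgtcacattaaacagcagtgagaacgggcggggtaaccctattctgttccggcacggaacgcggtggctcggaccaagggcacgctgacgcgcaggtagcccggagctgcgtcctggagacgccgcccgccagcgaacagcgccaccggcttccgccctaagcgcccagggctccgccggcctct
Eif4b, chr15:102073523-102073772, plus strand: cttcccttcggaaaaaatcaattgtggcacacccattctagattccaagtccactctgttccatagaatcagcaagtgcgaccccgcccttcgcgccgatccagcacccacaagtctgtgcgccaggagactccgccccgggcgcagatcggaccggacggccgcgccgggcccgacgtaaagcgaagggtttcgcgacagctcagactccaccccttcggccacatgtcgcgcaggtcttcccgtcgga

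The letters CACGTG, which read the same on both strands, were present in the RefSeq window from 250 bases before to 50 bases after a start in 10 of the 42 members with a window (23.8%), against 8.09% of all 27025 genes with one. The members were Eif1b, Eif3a, Eif3f, Eif3k, Eif4a1, Eif4e, Eif4g1, Eif4h, Eif5a and Eif5a2. A gene was counted if any of its windows held the motif, with 55 windows for the 42 members and 32851 for all genes. Members and all genes were not matched for base composition or for expression in heart. The motifs GTAAACA (FOXO) and TGACGTCA (CREB), searched on both strands, were in 0 of 42 member windows, against 4.05% and 2.03% of all genes. Of the 10 members with CACGTG, 5 had a light minus dark call, described below, against 6 of the 32 without it (29.6% of all genes). A link of motif and call was not tested. Among these 5 was Eif3a, which was lower in the light and whose site is not printed. The match sites of 3 members that were higher in the light are shown with 12 bases on each side, again with the motif in capitals. Eif4e held 2 of them, 228 and 64 bases before the second of its annotated starts.
Eif4e, chr3:138527028-138527057, plus strand: ctcgccagcgacCACGTGatcacttttttt
Eif4e, chr3:138527192-138527221, plus strand: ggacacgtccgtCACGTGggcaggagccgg
Eif4h, chr5:134639488-134639517, minus strand: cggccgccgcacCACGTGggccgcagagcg
Eif1b, chr9:120492570-120492599, plus strand: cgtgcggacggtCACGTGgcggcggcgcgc

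These letters describe the windows and say nothing of binding in heart.

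**Figure D1:**
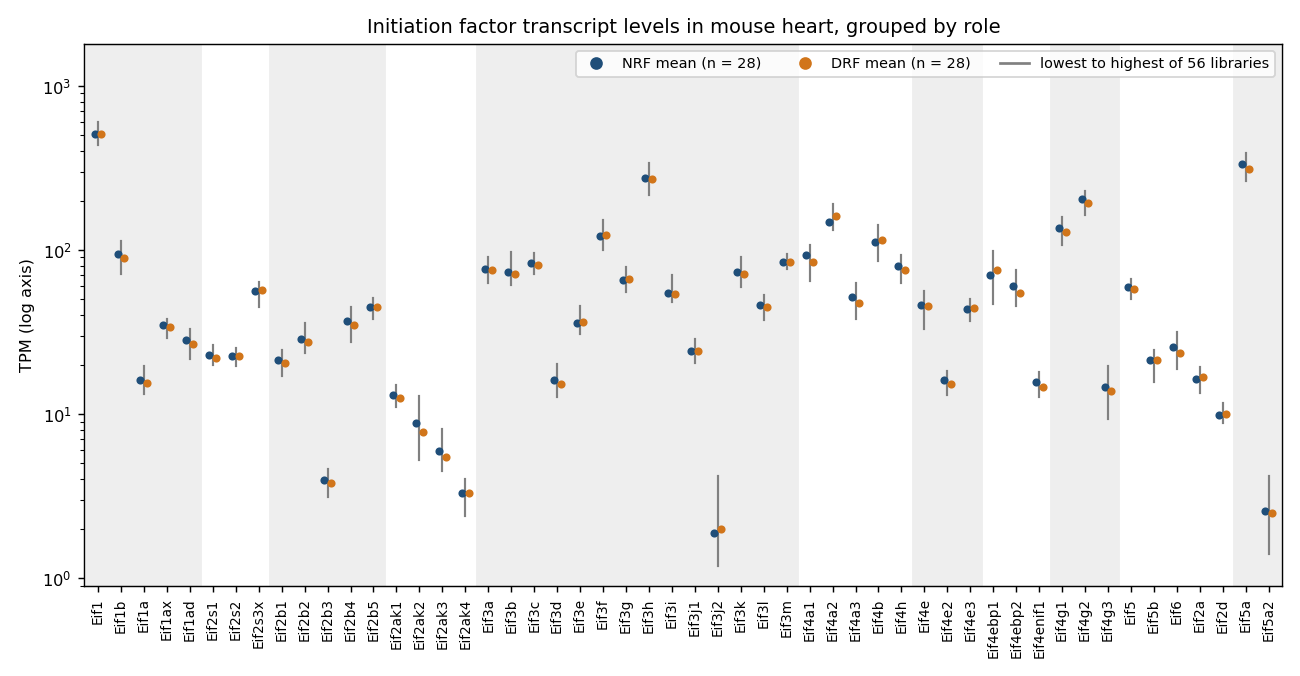
Mean TPM (log axis) of the 52 tested members under NRF and DRF (n = 28 libraries each), with grey lines from the lowest to the highest of 56 libraries and shaded bands that separate role groups. The regimens sit close together for every member, while levels differ between members from 1.94 to 508 TPM.

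A 24 h rhythm, tested with cosine and sine terms in the 28 libraries of a regimen, was called at a Benjamini-Hochberg adjusted p under 0.05. Under NRF 14 of 52 members were rhythmic, against 37.1% of all 13887 tested genes, and under DRF 17 were, against 32.2%. Both regimens called 6 members (17.5% of all genes), and at least one called 25 (51.8%). The median fitted amplitude, the distance from the fitted mean to the fitted peak, was 0.06 log2 under NRF and 0.07 under DRF for members, and 0.10 in each for all genes. The median level was 44.6 TPM for members and 9.70 TPM for all tested genes, and amplitudes were not matched for level. Among the 6 members rhythmic in both regimens, Eif4b, Eif2a and Eif5 moved their fitted peaks by over 8 h, and Eif4g3, Eif4ebp2 and Eif5a2 stayed within 4 h, against 17.6% and 52.1% of the 2427 genes called in both. Eif5 was no longer called under DRF with median-of-ratios scaling, nor in either regimen with the deposited values.

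Time courses were then compared between regimens, once by clock time and once by time since food onset, for which 12 h were added to the ZT of DRF libraries. By clock time 16 of 52 members had a different rhythm (27.5% of all genes), and by feeding time 17 had (41.2%). A difference by clock time and not by feeding time was called for 11 members (13.1% of all genes): Eif4b, Eif4a2, Eif2a, Eif5, Eif4e3, Eif4e2, Eif3e, Eif4g2, Eif3c, Eif5a and Eif2s1. The clock-time call was lost without any of 27 single libraries for Eif2s1 (adjusted p = 0.0461), which also lost it with a replicate block, of 14 for Eif3c, of 12 for Eif5a and without 1 for Eif3e. The converse was called for 12 members (26.9%): Eif4g3, Eif5a2, Eif4a3, Eif4ebp2, Eif1ax, Eif4h, Eif1a, Eif1b, Eif2ak2, Eif3j2, Eif3f and Eif3l. The feeding-time call was lost without any of 14 single libraries for Eif3l and of 2 for Eif3f. Both differences were called for Eif4e, Eif4a1, Eif1ad, Eif4ebp1 and Eif3j1 (14.4% of all genes).

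The same courses were summarised as hours with food against hours without. The light window was the mean of ZT4, ZT8 and ZT12, and the dark window the mean of ZT16, ZT20 and the average of ZT0 and ZT24. Fed hours were the light window under DRF and the dark window under NRF. Averaged over the regimens, 15 of 52 members differed between fed and fasted hours, against 20.4% of all genes. Transcripts were higher in fed hours for 10 (11.9% of all genes) and lower for 5 (8.48%). Of the 15, 11 had the same sign in both regimens. A light minus dark difference, which equals a fed minus fasted difference that is unlike between the regimens, was called for 13 members (29.6%), 11 higher in the light (23% of all genes) and 2 lower (6.62%). Markers of fibroblasts (2 of 4), leukocytes (1 of 4) and smooth muscle (1 of 3) were called higher in the light too. With median-of-ratios scaling, which sets the typical gene rather than the sum equal between libraries, the light split was 9 higher and 9 lower, whereas the fed split was 10 higher and 7 lower. Fitted to the values as deposited, which lie on a compressed log-like scale, the fed split was 5 higher and 11 lower, and 10 of the 15 calls were shared.

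**Figure D2:**
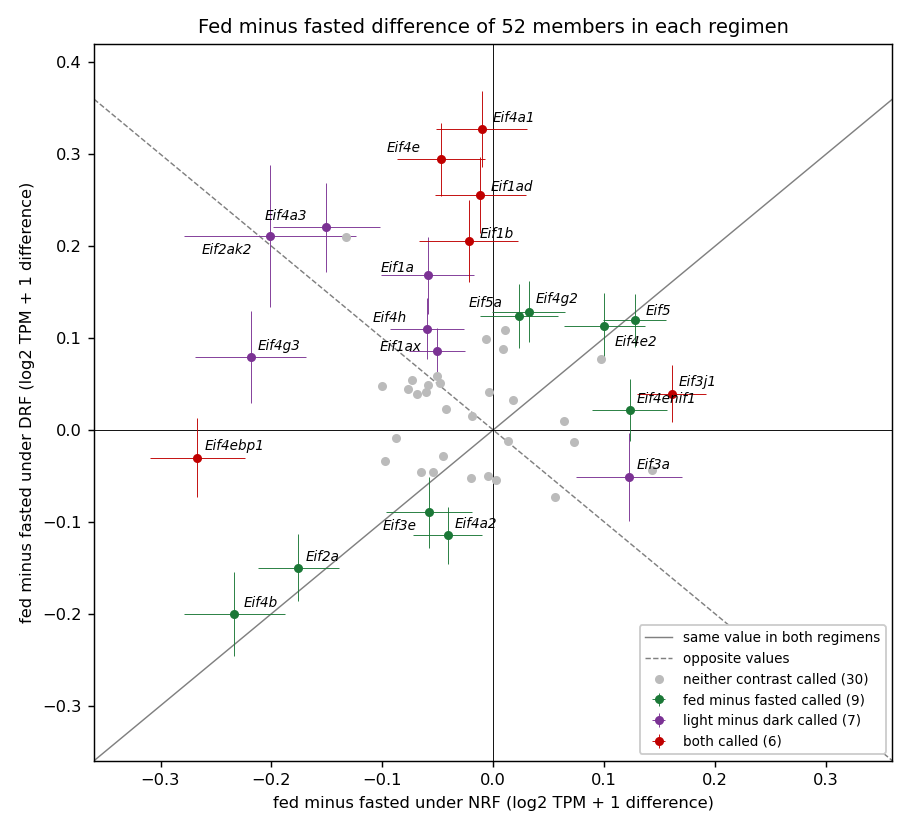
Fed minus fasted log2(TPM + 1) difference of each of 52 members under NRF (horizontal) and DRF (vertical), with bars of 1 standard error for members called in a contrast. Eif4b, Eif2a, Eif5 and Eif4e2 lie near the solid line of equal values, Eif4a1, Eif4e and Eif1ad lie near 0 under NRF and above 0.25 under DRF, and Eif4ebp1 lies at -0.27 under NRF and near 0 under DRF.

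Averaged over the regimens, Eif4b had the largest fed minus fasted difference of the tested members. It encodes the cofactor that raises the activity of the eIF4A helicase and is a target of growth-factor kinases (ENSMUSG00000058655, chr15:102073773-102097173, plus strand of GRCm38). Under NRF its libraries ran from 95.1 TPM over a median of 127 to 138 TPM in the 12 libraries of fasted hours, and from 85.7 over 103 to 120 TPM in the 16 of fed hours. Under DRF they ran from 102 over 123 to 141 TPM in the 16 fasted libraries and from 93.3 over 104 to 118 TPM in the 12 fed ones. Fasted libraries were the higher ones under both regimens, with overlapping ranges. The difference was -0.23 ± 0.046 log2 (SE) under NRF and -0.20 ± 0.046 under DRF, and -0.22 ± 0.032 over both (limma, adjusted p = 2.6e-06). The peak lay at ZT10.5 ± 0.719 under NRF and ZT21.6 ± 0.904 under DRF (SE), a shift of 11.1 ± 1.15 h. The difference between the regimens' fed effects was 0.03, with a 95% interval from -0.10 to 0.16.

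Eif2a fell in fed hours in the same manner. It encodes a factor that can deliver initiator tRNA without eIF2 and is distinct from the eIF2 alpha subunit, which is encoded by Eif2s1 (ENSMUSG00000027810, chr3:58525821-58557501, plus strand). Under NRF the fasted libraries ran from 14.4 over 17.7 to 18.8 TPM and the fed ones from 13.6 over 15.7 to 17.1 TPM. Under DRF they ran from 15.7 over 17.5 to 19.3 TPM fasted and from 13.4 over 15.96 to 17.2 TPM fed. The medians differed by a like amount in both regimens, and the ranges overlapped. The fed minus fasted difference was -0.16 ± 0.026 log2 (limma, adjusted p = 7.73e-06), with -0.18 under NRF and -0.15 under DRF. The peak moved from ZT8.42 to ZT19.6, by 11.2 ± 1.25 h.

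Eif5 rose in fed hours. It encodes the activator of GTP hydrolysis by eIF2 at the start codon (ENSMUSG00000021282, chr12:111538016-111546752, plus strand). Under NRF its levels ran from 58.0 over 61.8 to 65.2 TPM fed and from 51.4 over 55.5 to 65.3 TPM fasted, and under DRF from 57.1 over 60.8 to 66.7 TPM fed and from 50.4 over 56.2 to 64.1 TPM fasted. Fed medians were higher by about as much in each regimen, and the highest fasted library under NRF, at ZT8, reached the top of the fed range. The difference was 0.12 ± 0.020 log2 (limma, adjusted p = 1.23e-05), with 0.13 under NRF and 0.12 under DRF, and the interval for their difference ran from -0.09 to 0.07. The peak moved from ZT20.0 to ZT6.19, by 10.2 ± 1.33 h.

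Eif4e2, which encodes a cap-binding protein that represses rather than promotes initiation of bound mRNAs, rose by 0.11 ± 0.026 log2 in fed hours (limma, adjusted p = 0.00195; ENSMUSG00000026254, chr1:87213914-87240488, plus strand). Its values were 0.10 under NRF and 0.11 under DRF. Fed libraries ran from 15.4 over 16.4 to 18.3 TPM under NRF and from 13.7 over 15.8 to 17.8 TPM under DRF. Fasted ones ran from 13.95 over 14.9 to 18.04 TPM and from 13.1 over 14.6 to 16.2 TPM. The shift between medians was smaller than the range within any window. A rhythm of its own was called in neither regimen (adjusted p = 0.0952 and 0.109).

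Smaller averaged fed minus fasted calls were Eif4a2 and Eif3e, both lower in fed hours, and Eif4g2, Eif5a and Eif4enif1, all higher. Their sizes ran from 0.07 to 0.08 log2, with no called difference between the fed effects of the regimens. Under NRF and DRF they were 0.03 and 0.13 log2 for Eif4g2, 0.02 and 0.12 for Eif5a and 0.12 and 0.02 for Eif4enif1, and the 95% interval of each of these 3 differences left out 0 (limma, adjusted p = 0.11, 0.119 and 0.102). They were -0.04 and -0.11 log2 for Eif4a2 and -0.06 and -0.09 for Eif3e. Eif4g2 encodes an eIF4G relative used in cap-independent initiation, and Eif4enif1 a carrier that takes eIF4E into the nucleus and to sites of mRNA decay. Eif4a2, Eif3e, Eif5a and Eif4enif1 lost the call without ZT12. Eif5a also lost it without DRF ZT12 replicate 4 or NRF ZT4 replicate 3, and Eif3e, at an adjusted p of 0.0493, without any of 38 single libraries.

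A second set of members differed between fed and fasted hours under DRF, with values near 0 under NRF. Eif4a1 encodes the main helicase of the cap-binding complex (ENSMUSG00000059796, chr11:69666936-69672423, minus strand). Under DRF its fed libraries ran from 85.1 over 93.4 to 107 TPM and its fasted ones from 65.1 over 76.7 to 90.8 TPM. Under NRF the fed libraries ran from 84.5 over 90.9 to 102 TPM and the fasted ones from 78.5 over 91.4 to 105 TPM. Day-fed hearts were low in the dark hours, and under NRF no rhythm was called (adjusted p = 0.789). The difference was 0.33 ± 0.041 log2 under DRF and -0.01 ± 0.041 under NRF, and the regimens' values differed by 0.34 (95% interval 0.22 to 0.46, limma, adjusted p = 1.91e-05). The lowest group mean under DRF was 70.6 ± 5.08 TPM at ZT20 and the highest 97.8 ± 8.32 TPM at ZT4 (SD, n = 4), a ratio of 1.39, against 1.09 under NRF. The pseudogene Eif4a-ps4 was listed with 1345 reads per library on average, so reads of near-identical copies may be split between it and the gene.

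Eif4e, which encodes the cap-binding protein itself, had values of the same pattern (ENSMUSG00000028156, chr3:138526179-138559696, plus strand). Under DRF its fed libraries ran from 36.3 over 52.8 to 56.6 TPM and its fasted ones from 33.0 over 41.3 to 45.0 TPM. Under NRF the fed libraries ran from 39.4 over 45.2 to 47.7 TPM and the fasted ones from 40.3 over 48.4 to 51.8 TPM. Under DRF the lowest fed library, ZT4 replicate 2, lay among the fasted ones, and it also held the highest erythroid marker sum. Without it the light minus dark difference was 0.19 log2 (limma, adjusted p = 1.98e-07). The fed minus fasted difference was 0.29 ± 0.039 log2 under DRF and -0.05 ± 0.039 under NRF, and these differed by 0.34 (95% interval 0.23 to 0.45, limma, adjusted p = 7.65e-06). Its peak lay at ZT9.59 ± 0.527 under DRF, with a group mean of 54.1 ± 0.869 TPM at ZT8 against 38.6 ± 2.14 TPM at ZT24 (SD, n = 4). The average over both regimens, 0.12 log2, fell to 0.09 without ZT8 (adjusted p = 0.0565).

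Eif1ad, an eIF1A-domain gene whose exons share 15.3% of their bases with Banf1 on the other strand, ran under DRF from 27.2 over 28.8 to 33.1 TPM fed and from 21.8 over 24.9 to 27.0 TPM fasted, so the groups did not overlap (ENSMUSG00000024841, chr19:5366741-5371526, plus strand). Under NRF it ran from 24.5 over 27.99 to 32.1 TPM fed and from 24.4 over 29.0 to 32.1 TPM fasted. The difference was 0.26 ± 0.041 log2 under DRF and -0.01 ± 0.041 under NRF (limma, adjusted p of their difference = 0.000419). Eif1b, a close copy of Eif1, had 0.21 and -0.02, and lost the averaged fed call without DRF ZT12 replicate 4, DRF ZT20 replicate 1, NRF ZT4 replicate 3 or NRF ZT16 replicate 2.

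**Figure D3:**
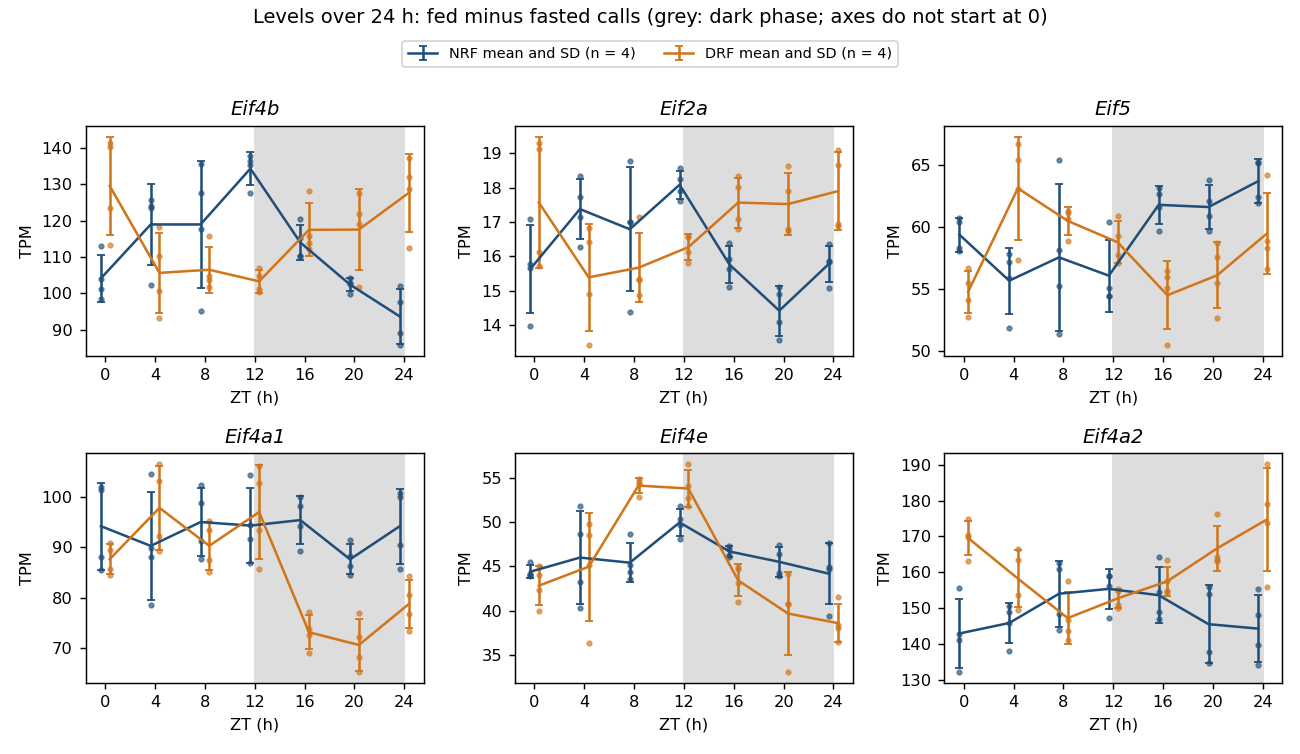
TPM against ZT for 6 members under NRF and DRF (points are libraries, lines are means, bars are SD, n = 4, grey is the dark phase, and axes do not start at 0). Eif4b, Eif2a and Eif5 run in opposite directions in the regimens, Eif4a1 and Eif4e fall in the dark hours under DRF, where Eif4a1 reaches 70.6 TPM, and Eif4a2 is above its NRF level at ZT0, ZT20 and ZT24.

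The reverse was seen for Eif4ebp1, which encodes the 4E-binding protein that holds eIF4E inactive until mTORC1 phosphorylates it (ENSMUSG00000031490, chr8:27260329-27276674, plus strand). Under NRF its libraries ran from 60.9 over 78.3 to 92.0 TPM in fasted hours and from 47.0 over 63.2 to 78.4 TPM in fed hours. Under DRF they ran from 60.5 over 76.7 to 98.0 TPM fasted and from 67.0 over 75.2 to 77.5 TPM fed. Night-fed hearts thus showed a difference of -0.27 ± 0.043 log2, and day-fed hearts -0.03 ± 0.043 (limma, adjusted p of their difference = 0.00254), and the call on their difference ended without ZT12, without ZT20 or without ZT24. Under NRF the transcript peaked at ZT10.9 ± 0.579, with 87.2 ± 3.86 TPM at ZT12 against 54.7 ± 6.93 TPM at ZT24 (SD, n = 4), a ratio of 1.59. Under DRF no 24 h rhythm was called (adjusted p = 0.441), but ZT0 stood out, with 89.0, 98.0, 89.9 and 91.5 TPM against 69.1, 58.5, 63.0 and 68.6 TPM under NRF. All 4 DRF libraries were above all 4 NRF libraries, by 0.50 log2 (limma, adjusted p = 2.55e-05). At ZT24, the same clock time a day later, DRF libraries held 74.1, 67.5, 73.6 and 69.8 TPM, below all 4 DRF libraries of ZT0. They were again above all NRF libraries of ZT24, which held 52.04, 63.3, 56.4 and 47.0 TPM. Eif3j1, a loosely bound eIF3 subunit, likewise had 0.16 ± 0.031 log2 under NRF and 0.04 ± 0.031 under DRF, and part of its exon bases overlap Spg11 on the other strand.

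Other members differed between light and dark hours with no fed minus fasted call. Eif4a3 encodes a helicase of the exon junction complex that marks spliced mRNAs rather than a core initiation factor (ENSMUSG00000025580, chr11:119288363-119300089, minus strand). Its light-phase libraries ran from 42.9 over 54.9 to 62.9 TPM under NRF and from 43.9 over 50.3 to 60.8 TPM under DRF, and its dark-phase ones from 41.6 over 48.6 to 61.5 TPM and from 37.9 over 44.7 to 53.0 TPM. The light phase was the higher one in both regimens, with overlap. The light minus dark difference was 0.19 ± 0.034 log2 (limma, adjusted p = 4.9e-05), and the peaks lay at ZT5.52 ± 1.12 under NRF and ZT5.89 ± 0.560 under DRF, with no rhythm called under NRF (adjusted p = 0.0511).

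Eif4g3 encodes a second eIF4G scaffold (ENSMUSG00000028760, chr4:137993022-138208508, plus strand). It ran from 13.6 over 15.5 to 19.7 TPM in the light and from 11.0 over 13.4 to 16.9 TPM in the dark under NRF. Under DRF both medians were 13.9 TPM, with 10.02 to 16.7 TPM in the light and 9.27 to 16.5 TPM in the dark. The peak of Eif4g3 lay at ZT5.34 ± 0.569 under NRF and ZT2.87 ± 0.624 under DRF, and its rhythm was not called different by clock time. In both regimens its lowest group mean was at ZT16. The light minus dark difference was 0.15 ± 0.035 log2 (limma, adjusted p = 0.00118), and 0.07 without ZT16 (adjusted p = 0.24). By feeding time its courses differed at an adjusted p of 2.06e-08.

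Eif2ak2 encodes PKR, the eIF2 kinase that is activated by double-stranded RNA (ENSMUSG00000024079, chr17:78852564-78882573, minus strand). Its light-phase libraries ran from 7.68 over 9.37 to 13.0 TPM under NRF and from 5.61 over 8.68 to 10.8 TPM under DRF. Its dark-phase libraries ran from 6.74 over 8.30 to 10.4 TPM and from 5.28 over 7.95 to 9.87 TPM. The difference was 0.21 ± 0.055 log2 (limma, adjusted p = 0.00348), the largest of the 13 light calls, and 0.15 without ZT16 (adjusted p = 0.0726). No rhythm was called for it in either regimen alone.

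The other members higher in the light were Eif1a, Eif1ax and Eif4h, besides Eif1b, Eif1ad, Eif4a1, Eif4e and Eif4ebp1 above. Eif1a and Eif1ax encode near-identical eIF1A proteins that scan with the ribosome, and Eif4h a small cofactor of eIF4A, with differences of 0.11 ± 0.030, 0.07 ± 0.018 and 0.08 ± 0.024 log2. Eif1a and Eif4h lost the call without ZT16, Eif1ax and Eif1b without ZT8, and Eif4h also without ZT20 or ZT24 and Eif1b without ZT20. Eif3a and Eif3j1 were lower in the light, by 0.09 and 0.06 log2, and leaving out single libraries ended the call 34 and 7 times. Under median-of-ratios scaling Eif1b and Eif1ax were no longer called. Eif5a2, a low-level copy of the factor that relieves stalled ribosomes, had the largest ratio of highest to lowest group mean of the 52 tested members, from 1.73 ± 0.263 TPM at ZT4 to 3.62 ± 0.399 TPM at ZT12 under NRF and from 1.74 ± 0.403 to 3.28 ± 0.231 TPM at the same times under DRF (SD, n = 4). Its peaks lay at ZT16.2 ± 0.698 and ZT14.9 ± 0.938, and its courses differed by feeding time (limma, adjusted p = 4.02e-06) and were not called different by clock time (adjusted p = 0.492).

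**Figure D4:**
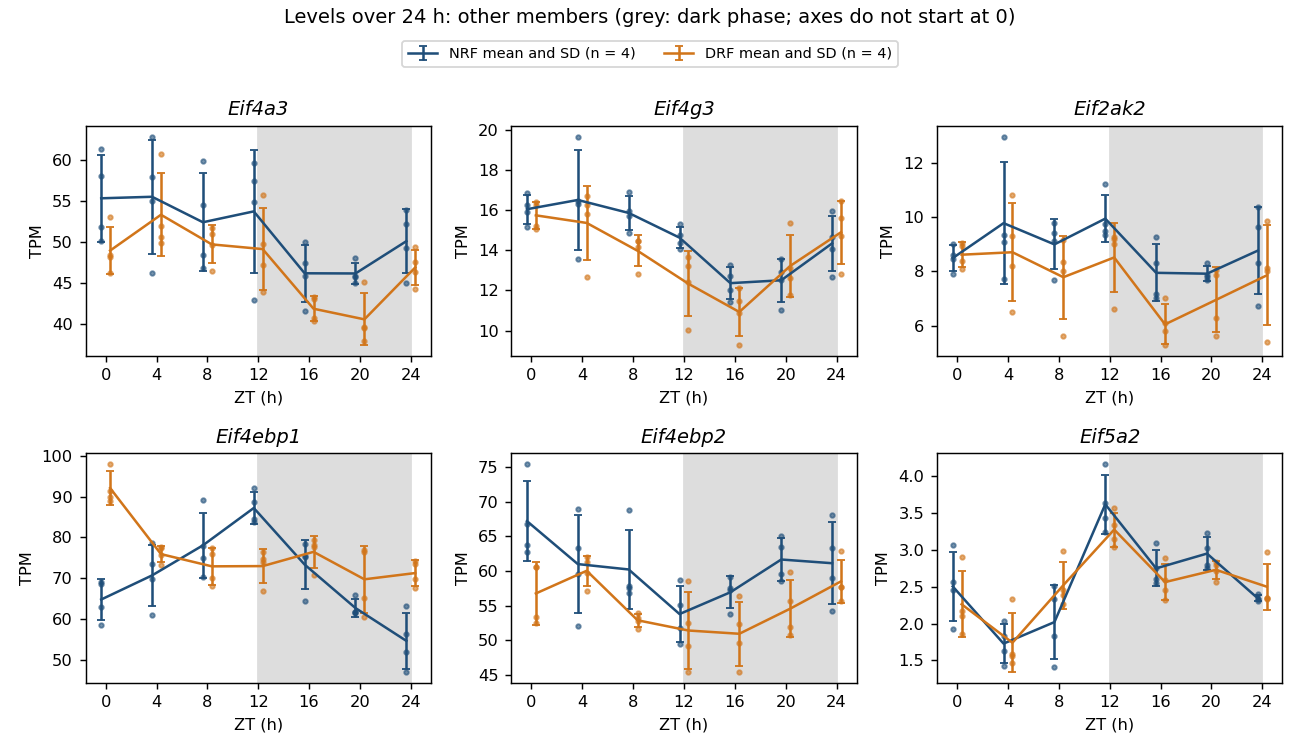
TPM against ZT for 6 members under NRF and DRF (points are libraries, lines are means, bars are SD, n = 4, grey is the dark phase, and axes do not start at 0). Fitted peaks of Eif4a3, Eif4g3 and Eif5a2 lie less than 4 h apart in the regimens, with no rhythm called for Eif4a3 under NRF, Eif4ebp1 rises to ZT12 under NRF and stands at 92.1 TPM at ZT0 under DRF, and Eif4ebp2 is lower under DRF at every ZT.

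Close relatives are set side by side here. Of the eIF4A helicases, Eif4a2 was the most abundant, at 155 TPM, followed by Eif4a1 at 89.0 and Eif4a3 at 49.3 TPM. Eif4a2 (ENSMUSG00000022884, chr16:23107444-23114136, plus strand) was lower in fed hours by 0.08 ± 0.022 log2 where Eif4a1 was higher by 0.16, a call that for Eif4a2 ended without ZT8 or without ZT12, and its fitted peak lay at ZT22.1 ± 0.759 under DRF where that of Eif4a1 lay at ZT6.92 ± 0.546. Exons of Eif4a1 overlap snoRNA genes on the same strand by 3.32% and 3.30% of their bases. Those of Eif4a2 overlap such genes by 3.33%, 2.42%, 2.34%, 1.29% and 0.187%. Eif4a2 exons also overlap a miRNA gene by 1.99% and Rfc4, on the other strand, by 3.63%. Of the cap-binding proteins, Eif4e and Eif4e3 stood at 45.7 and 44.1 TPM and Eif4e2 at 15.6 TPM. Eif4e3 was called rhythmic under NRF, with a peak at ZT13.8 ± 0.864, and not under DRF (adjusted p = 0.438), and no fed minus fasted difference was called (0.02 ± 0.024 log2). Of the 4E-binding proteins, Eif4ebp2 (ENSMUSG00000020091, chr10:61428491-61452661, minus strand) peaked near lights on in both regimens, at ZT0.578 ± 1.24 and ZT2.02 ± 0.961, unlike Eif4ebp1. Of the scaffolds, Eif4g2 stood at 198, Eif4g1 at 132 and Eif4g3 at 14.2 TPM, and of these 3 genes Eif4g3 was the one called rhythmic under both regimens.

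Mean levels over the day were compared as the average of the 7 DRF group means minus that of the 7 NRF group means. The test called 16 of 52 members, 2 higher under DRF (2.87% of all genes) and 14 lower (26% of all genes). Eif4a2 averaged 161 ± 11.5 TPM under day feeding and 149 ± 9.02 TPM under night feeding (SD over 28 libraries each), a difference of 0.11 ± 0.021 log2 (limma, adjusted p = 0.000165), and its group mean was higher under DRF at 5 of 7 ZT. Eif4ebp1 averaged 75.9 ± 8.18 and 70.2 ± 11.4 TPM, higher by 0.12 ± 0.029 log2 (adjusted p = 0.00197), and its difference was 0.06 without ZT0 (adjusted p = 0.204) and 0.08 without ZT24 (adjusted p = 0.0584). Eif2ak2 averaged 7.79 ± 1.51 under DRF and 8.84 ± 1.32 TPM under NRF, a difference of -0.17 ± 0.053 log2 (adjusted p = 0.0125), and was lower at 6 of 7 ZT. Eif4a1 was at 85.0 ± 11.7 and 93.0 ± 7.04 TPM, with a difference of -0.14 ± 0.028 log2. Eif4ebp2 and Eif4a3 were lower under DRF at all 7 ZT, with -0.13 ± 0.030 and -0.12 ± 0.033 log2. The ranges of the 28 libraries overlapped for every one of these genes.

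The split into higher and lower depended on the scaling. Over all genes the median difference was -0.0476 log2 with TPM and 0.0015 with median-of-ratios scaling, and the share of calls that were lower went from 90.1% to 55.4%. With median-of-ratios scaling 10 members were called, 8 higher and 2 lower, of which 4 were shared: Eif4a2 and Eif4ebp1 higher, and Eif4a1 and Eif4ebp2 lower. The 6 gained were Eif2d, Eif2s3x, Eif2a, Eif4e3, Eif3e and Eif4b, all higher. Mitochondrially encoded genes took 21.8 ± 1.47% of the reads of day-fed hearts and 20.4 ± 1.57% of those of night-fed ones (SD over 28 libraries each). All 4 endothelial markers were lower under DRF, as were 2 of 4 fibroblast, 2 of 4 leukocyte, 1 of 3 smooth muscle and 1 of 5 cardiomyocyte markers. Another cardiomyocyte marker was higher, and limma called 0 of the adipocyte, atrial and erythroid markers. The part of the mitochondrial reads and of the markers in the lower calls was not tested. The summed atrial markers had medians of 1027 and 497 TPM in fed and fasted NRF libraries and 1604 and 2048 TPM in DRF libraries. With the atrial and erythroid marker sums as covariates 13 members were called, and Eif2ak2 (adjusted p = 0.0573), Eif4e2, Eif4g1 and Eif1ad were no longer among them.

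**Figure D5:**
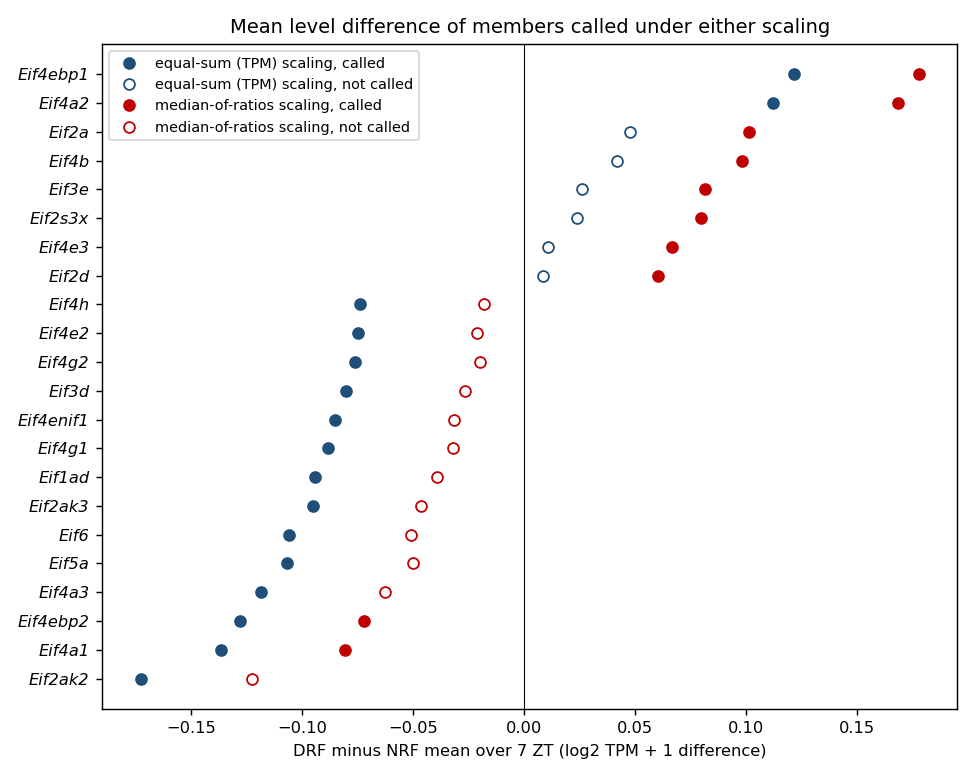
DRF minus NRF difference in mean level over 7 ZT (log2, horizontal) for the 22 members called under either scaling, with filled points for called values. Median-of-ratios values lie to the right of TPM values for every member, and Eif4ebp1, Eif4a2, Eif4a1 and Eif4ebp2 are called on the same side of 0 under both.

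At single clock times, 19 members differed between the regimens at 1 ZT or more (32.9% of all genes), in 29 calls. ZT0 had 8 (11.5% of all genes), of which 5 were higher under DRF (3.05%) and 3 lower (8.41%). ZT12 had 3 (7.6%), with 0 higher (1.27%) and 3 lower (6.32%), and ZT16 had 5 (6.77%), with 0 higher (0.648%) and 5 lower (6.12%). ZT20 had 9 (15%), with 2 higher (3.36%) and 7 lower (11.7%), and ZT24 had 4 (8.83%), with 3 higher (4.34%) and 1 lower (4.49%). At ZT4 and ZT8 limma called 0 members, against 0.446% and 0.389% of all genes, while 5 members at each had an unadjusted p under 0.05, and limma voom on the recovered reads called 0 and 1. The counts rest on few libraries. That at ZT0 fell to 3 without DRF replicate 1 or NRF replicate 3 and to 4 without DRF replicate 4 or NRF replicate 1. That at ZT20 fell to 4 without NRF replicate 2 and to 5 without NRF replicate 1 or DRF replicates 1 or 2, and rose to 14 without DRF replicate 4. At ZT12 it was 1 without replicate 1 or 3 of either regimen, and at ZT16 it was 1 or 2 without any 1 of the NRF replicates or of DRF replicates 2, 3 and 4.

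The calls with the lowest adjusted p were those of Eif4ebp1 at ZT0, given above, and of Eif4b at ZT24. Eif4a1 was lower under DRF in the dark phase. At ZT16 its DRF libraries held 77.2, 73.7, 72.6 and 68.9 TPM and NRF libraries 89.2, 94.2, 100.1 and 98.2 TPM. At ZT20 they held 68.1, 65.1, 72.2 and 76.8 TPM against 88.2, 91.5, 86.3 and 84.5 TPM. The groups did not overlap at either time, with differences of -0.38 and -0.31 log2 (limma, adjusted p = 0.00195 and 0.00394). Eif5a, at ZT20, held 267, 264, 286 and 293 TPM against 355, 337, 356 and 320 TPM, also without overlap. Eif4b was higher under DRF at ZT24, with 137, 113, 132 and 129 TPM against 97.7, 102, 89.2 and 85.7 TPM, and lower at ZT12, with 101, 105, 100.4 and 107 TPM against 136, 135, 138 and 128 TPM. The share of mitochondrially encoded reads at ZT20 was 23.4 ± 1.06% under DRF and 20.2 ± 0.467% under NRF (SD, n = 4), whose part was not tested.

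Of the 3 measured eIF2 subunits (Eif2s1, Eif2s2 and Eif2s3x), 0 had a fed, light or mean call by limma with TPM scaling (20.4%, 29.6% and 28.9% of all genes). With median-of-ratios scaling Eif2s3x had a mean call, higher under DRF by 0.08 log2 (limma, adjusted p = 0.00125). Of the 3, 1, Eif2s1, was called rhythmic under NRF (limma, adjusted p = 0.0436) and different by clock time. Its NRF call ended without any of 18 single libraries. The 5 subunits of eIF2B, the exchange factor that recharges eIF2, had 0 limma calls in the tests by rhythm, window or mean, a count too small to set against those shares. At an unadjusted p under 0.05 at most 2 of the 5 passed a test, and limma voom called 1, for the fed minus fasted difference. Their levels ran from 3.87 TPM for Eif2b3 to 45.0 TPM for Eif2b5, and fed minus fasted values had a median of 0.00 log2. Among the 4 eIF2 kinases, Eif2ak1 (heme-regulated) and Eif2ak4 (GCN2, the amino acid sensor) had no call, and Eif2ak3 (PERK, of the endoplasmic reticulum) was lower under DRF by 0.10 ± 0.034 log2 (adjusted p = 0.0298), a call that ended without NRF ZT4 replicate 4 and with median-of-ratios scaling. Of 14 genes for eIF3 subunits, the large scaffold on the small ribosomal subunit, 3 were rhythmic under NRF (37.1% of all genes) and 0 under DRF (32.2%; limma, with 0 at an unadjusted p under 0.05 and 0 by voom), and the median fed minus fasted value was -0.03 log2. The 3 were Eif3j1, Eif3e and Eif3j2, and the calls of Eif3e and Eif3j2 both ended without NRF ZT12 replicate 2. That of Eif3j2 (limma, adjusted p = 0.0404) ended without any of 9 single libraries and with a replicate block. Eif3d shares 43.3% of its exon bases with an antisense gene, and the library kit marks no strand, so reads of the pair cannot be told apart. In the helicase group 5 of 5 genes were called rhythmic under DRF (32.2% of all genes) and 1 of 5 under NRF (37.1%), where Eif4a3 and Eif4a2 had adjusted p-values of 0.0511 and 0.0522 (limma). The DRF call of Eif4h ended with median-of-ratios scaling, with the deposited values, and without ZT16 or ZT20.

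Neighbouring steps of the pathway were read from lists of 30 regulators of initiation and 12 genes of elongation and termination. Of the 29 tested regulators, 6 were higher (11.9% of all genes) and 3 lower (8.48%) in fed hours. Abce1, which splits ribosomes for reuse, was higher by 0.14 ± 0.022 log2 (limma, adjusted p = 6.28e-06), and Larp1, the repressor of mRNAs of the translation machinery, by 0.13 log2. Ppp1r15a (GADD34, a phosphatase subunit that reverses eIF2 phosphorylation) was lower by 0.20 log2, and Pdcd4, an inhibitor of eIF4A, by 0.18 log2 on average. For Pdcd4 the fed minus fasted value was -0.51 under NRF and 0.14 under DRF, and its light minus dark difference of 0.32 ± 0.061 log2 was larger (limma, adjusted p = 7.08e-05). The remaining lower call was Mknk2, at -0.12 log2 on average, with 0.11 under NRF and -0.35 under DRF. Its light minus dark difference was -0.23 ± 0.037 log2 (limma, adjusted p = 6.49e-06). Of 11 tested genes of elongation and termination, 3 were higher and 2 lower, against the same shares of all genes. Eef2, the translocation factor, was lower by 0.17 ± 0.036 log2, and the release factors Etf1 and Gspt1 were higher by 0.10 and 0.11 log2. The median fed minus fasted value was 0.00 log2 for the regulators, -0.01 for elongation and termination, 0.00 for the initiation factors and 0.01 for all genes.

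The atrial markers had a median fed minus fasted value of 0.81 log2, with 0 of 4 called by limma, and the erythroid markers 0.08 with 0 of 5 called, and in both lists 0 had an unadjusted p under 0.05 and voom called 0. Of the other marker lists, 1 of 5 cardiomyocyte and 1 of 4 adipocyte markers were called lower in fed hours. Beside the markers called higher in the light given above, 1 of 5 cardiomyocyte markers was higher in the light and 1 lower. The summed fibroblast markers ran from 386 to 614 TPM in the light and from 376 to 501 TPM in the dark under NRF, and from 364 to 602 and from 351 to 528 TPM under DRF. The part of these markers in the members' differences was not tested. With both marker sums in the model, 18 members had a fed minus fasted call, and all 15 above were among them. Of the 33 marker genes looked at, Sln, an atrial one, was at 0 in 1 library, and the others were above 0 in every library.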

How the data were processed

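The authors aligned reads with HISAT2 2.0.5 and counted them with featureCounts 1.5.0-p3 on build mm10, per the labels' processing notes, and deposited 1 value per gene and library that they named TPM. The annotation and the use of strand are not given in the sources used here. The deposited values, another unit than that name, were not linear TPM but a library constant times log2(1 + scaled reads) divided by exon length. Inverting this gave whole reads, within 0.1, for 99.9996% of 1191845 values. Exon lengths came from GENCODE M21. Lengths were searched for 821 genes, 786 of them on chromosomes 17 to 19 (Eif1a, Eif1ad and Eif3a included), and 13 genes were left out. The recovery and the fit were tested on simulated data. Reads were scaled to linear TPM, and log2(TPM + 1) of the 13887 genes that averaged 1 TPM or more was fitted with limma 3.58.1 (eBayes, trend) in R 4.3.3, Benjamini-Hochberg threshold 0.05 over all genes. For low genes this scale makes a change look smaller than it is.

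The study's rhythm detection was replaced by a harmonic model that allows regimens to be compared: rhythms were F tests of cosine and sine terms of 24 h, and peak errors came from the delta method. Differences between regimens in rhythm were F tests of the interaction terms over 56 libraries. Window, mean and single-ZT contrasts came from 14 group means. Intervals of a difference used the t distribution. Named genes were the 8, 5 and 5 calls of largest fed minus fasted, light minus dark and mean difference, with close relatives beside them. Members and lists were chosen with earlier results of these data known. Alternatives were another pseudocount (0.1), no filter, median-of-ratios scaling, limma voom on recovered reads, deposited values, a replicate block, and leaving out each ZT or each library. Marker covariates were added after seeing the data. All value columns matched a sample. Duplicate reads from PCR were not separable.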

Additional observations from a re-analysis of the deposited data

Results flagged for a closer look

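In 7 of 168 groups of 4 libraries (12 named members in 14 groups), one library stood apart from the other three by Dixon's criterion at the 95% level, and chance sets apart about 1 group in 20. They were Eif1ad at 32.1 TPM in DRF ZT12 replicate 4, Eif2ak2 at 6.60 TPM in DRF ZT12 replicate 3, Eif4b at 102 TPM in NRF ZT4 replicate 1, Eif4e at 45.5 TPM in NRF ZT0 replicate 1, Eif4ebp1 at 65.9 TPM in NRF ZT20 replicate 1, Eif4ebp2 at 68.8 TPM in NRF ZT8 replicate 4 and Eif5 at 60.4 TPM in NRF ZT12 replicate 1.

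The fed minus fasted effect differed between the regimens for 13 members in the limma contrast. The DRF effect less the NRF effect, in log2, was 0.41 for Eif2ak2, 0.37 for Eif4a3, 0.34 for Eif4e, 0.34 for Eif4a1, 0.30 for Eif4g3, 0.27 for Eif1ad, 0.24 for Eif4ebp1, 0.23 for Eif1b, 0.23 for Eif1a, 0.17 for Eif4h and 0.14 for Eif1ax, and it was -0.17 for Eif3a and -0.12 for Eif3j1. The DRF minus NRF difference itself changed over the day for 16 members.

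Among the pseudogenes left out of the members, Eif4a-ps4 had 1345 reads per library on average and Eif1-ps1 had 9.43, above the 3 reads that a count of 0 allows.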

How the results depend on the processing

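Rhythmic members under NRF, 14 as reported, numbered 9 without ZT16, 8 without ZT20 and 9 without ZT24. The rhythm difference by clock time, 16, was 10 without ZT12, and that by feeding time, 17, was 10 without ZT16. The mean difference, 16, was 10 with median-of-ratios scaling, 8 with deposited values (3 higher, 5 lower), 10 without ZT0 and 9 without ZT16. Light minus dark calls, 13, were 7 without ZT16 and 8 without ZT20. The cause of these moves was not tested beyond fewer samples being fitted where a ZT was left out. Leaving out each library in turn gave 10 to 19 rhythmic members under NRF, 14 to 18 under DRF, 13 to 17 by clock time, 15 to 19 by feeding time, 14 to 20 for the mean, 13 to 17 fed minus fasted, 11 to 16 light minus dark and 23 to 33 single-ZT calls. The fed minus fasted count stayed between 10 and 19 under every alternative run, and Eif4b, Eif2a, Eif5, Eif4a1, Eif4ebp1, Eif1ad and Eif4e2 kept that call in all 14 that did not leave out a single library. With a replicate block the counts were 12 (NRF), 17 (DRF), 15 (clock time), 17 (feeding time), 16 (mean), 15 (fed), 13 (light) and 28 (single ZT). Replicate numbers did not pair the samples, since 1 of 28 same-numbered pairs correlated above 0.1, and 3 of 28 DRF libraries correlated best with their own number. Depth limits Eif4ebp3, and small differences of members at a few TPM.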
